A study of Mus musculus with 13 samples.

Results

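The crush response of control sciatic nerves was described as the ratio of injured over contralateral expression, gene by gene. It rests on 6 libraries, 3 from crushed nerves at 5 dpc (days post-crush) and 3 from the uninjured nerves of the other side. All mice of this comparison were labelled C57BL/6 and carried floxed Rptor alleles on both chromosomes with no Cre transgene. They had received tamoxifen when 2 months old, and surgery followed 2 months after the last injection, so that the alleles and the drug are shared by both sides. Mice of either sex were used, and both libraries of control 3 held high counts of Xist with few of Y-linked genes, unlike the other 4. The study crushed 1 sciatic nerve per mouse and took the nerve distal to the crush with the epineurium stripped off. Each library therefore mixes Schwann cell (SC) transcripts with those of every other cell of the nerve, and fewer cells of a type cannot be told apart from less RNA per cell. The contralateral nerves come from mice that were themselves operated on, so they are not nerves of unoperated animals. Genes entered when at least 2 of the 6 libraries held 50 counts or more, which left 12430 of the 40787 genes in the table, 11981 of them protein coding. RaptorKO nerves (3 injured and 4 contralateral), from mice with the same floxed alleles recombined by a tamoxifen-inducible Cre directed to SCs, were used only for the test of a difference between genotypes at the end.

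When a peripheral axon is crushed, the part beyond the crush degenerates, and the SCs that had wrapped it shut down the myelin program and re-enter the cell cycle. These cells, called repair SCs, express the transcription factor c-Jun, secrete trophic factors for neurons, and break down their own myelin together with macrophages that enter from the blood. Myelin is rich in cholesterol, very long chain fatty acids, and galactolipids, which SCs largely synthesize themselves.

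Library totals ranged from 9792211 to 13322933 counts in the 6 libraries. Values are counts per 1000000 (CPM) after TMM scaling, with factors of 1.057 to 1.084 in injured and 0.9213 to 0.947 in contralateral nerves. The 20 most abundant genes held 15.5% to 19.1% of the counts in injured and 20.3% to 21.3% in contralateral nerves. Pearson's r of log2 CPM across the tested genes, which are not independent replicates, was 0.964 to 0.979 between libraries of one side and 0.672 to 0.684 between sides. Errors after ± are SDs over 3 libraries for CPM values and standard errors of the fit for log2 fold changes. Values of single libraries are given in the order of replicates 1, 2, and 3. Libraries of a side are separate mice. The study speaks of corresponding contralateral nerves, but no source used here says whether equal numbers on both sides stand for the same mouse.

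Crush changed about as many genes upward as downward. In injured nerves 4032 genes were higher and 4087 lower, called where the Benjamini-Hochberg adjusted p of edgeR's quasi-likelihood test was under 0.05 and the change exceeded 1.2-fold. These are 32.4% and 32.9% of the tested genes, and the verbs rose and fell are used below only of such genes. Numbers of members that rose or fell in the gene lists below are to be read beside these shares. More than 2-fold changes were seen in 1943 of the higher and 1973 of the lower genes, and more than 10-fold changes in 494 and 289. All 3 injured libraries lay on the same side of all 3 contralateral ones in 8824 genes, or 71% of those tested. The median log2 fold change of all tested genes was -0.00153 under TMM scaling. With library totals alone it moved to 0.199, and the called genes were then 5126 higher and 3176 lower, 61.7% higher in place of 49.7%. Every gene called higher under TMM was also called higher under library totals, 3176 of the lower ones stayed lower, and 0 changed direction.

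**Figure D1:**
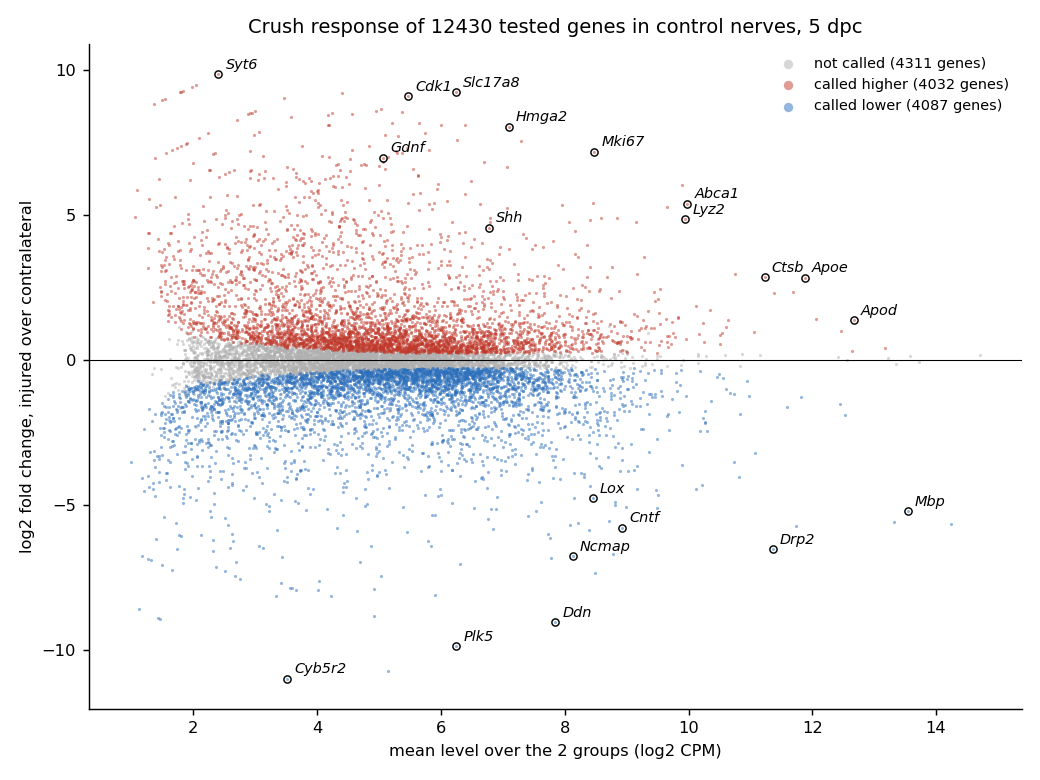
Each point is 1 of 12430 tested genes, with the mean level over both groups (log2 CPM) on the x axis and the log2 fold change of injured over contralateral control nerves on the y axis. Red and blue points are the 4032 genes called higher and the 4087 called lower. Myelin genes such as Drp2 and Mbp lie at the lower right, and Apod and Apoe lie at the upper right.

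The largest fold changes belonged to genes that were nearly silent on one side. Named here are the 10 called protein-coding genes with the largest change in each direction among those of 10 CPM or more in the higher group. On the rising side stood Syt6 (ENSMUSG00000027849, chromosome 3 of GRCm38, 103575231 to 103645569), a synaptotagmin, which had 0 counts in all 3 contralateral libraries and 9.72, 10.4, and 11.8 CPM in injured nerves. With 3 counts per library as the floor it was at least 39.1-fold higher. Slc17a8, a vesicular glutamate transporter, had 0.0911, 0.327, and 0.292 CPM in contralateral and 135, 162, and 157 CPM in injured nerves (log2 fold change 9.24, standard error 0.21, adjusted p = 4.33e-11, quasi-likelihood test of edgeR). Gzmb, a protease known from the granules of cytotoxic lymphocytes, had 0, 0.0819, and 0.0974 CPM in contralateral and 55.8, 25.6, and 45.8 CPM in injured nerves, a ratio of 709 (95% counting interval 196 to 5851). The growth factor gene Fgf5 had 1 count in the contralateral libraries together and 18.4, 13.8, and 15.5 CPM in injured nerves, a ratio of 533 (95% counting interval 95.6 to 21036). The remaining 6 were cell division genes or of unstated function here. Cdk1, Ccnb1, Ube2c, Kif14, and Pimreg act in mitosis, and BC030867 had a ratio of 514 (95% counting interval 92.3 to 20307).

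On the falling side, Cyb5r2 (ENSMUSG00000048065, chromosome 7 of GRCm38, 107748455 to 107758032), a cytochrome b5 reductase, had 23.6, 22.3, and 22.7 CPM in contralateral nerves and 0 counts in all injured libraries, at least 82.6-fold lower. Plk5, a member of the polo-like kinase family, had 183, 155, and 118 CPM in contralateral and 0.0892, 0.27, and 0.0971 CPM in injured nerves (log2 fold change -9.85, standard error 0.30, adjusted p = 1.30e-10, quasi-likelihood test of edgeR, -10.49 without control injured 2). Ddn, which encodes dendrin, had 479, 456, and 439.8 CPM in contralateral and 0.357, 1.26, and 0.971 CPM in injured nerves. The groups lay far apart in each of these genes, with injured libraries near 0. Etnppl, an enzyme of phosphoethanolamine breakdown, fell from 119.6 ± 15.6 to 0.429 ± 0.0981 CPM. Cnmd (-8.81 ± 0.31) and Sec14l5 (-7.88 ± 0.28) were counted in 2 and 3 of the injured libraries, with the log2 fold change in parentheses. Mchr1 and Cndp1 had 4 counts each there, all in injured 1, for ratios of contralateral over injured of 305 (95% counting interval 119 to 1119) and 262 (95% counting interval 102 to 961). Without that library the injured nerves held 0 counts of both. Wscd2 and Pdzph1 had 2 and 3 counts there, for ratios of contralateral over injured of 326 (95% counting interval 90.4 to 2696) and 277 (95% counting interval 94.8 to 1344).

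Ranked by the change in CPM, which is not corrected for transcript length, the losses were led by myelin. Among the 10 largest losses were the myelin genes Mbp, Pmp22, Prx, Drp2, and Mal. Outside myelin stood Fth1 (ferritin heavy chain, 9260.1 ± 794 to 2489 ± 207 CPM), Sparc (a matrix glycoprotein, 8231 ± 491 to 2905 ± 247 CPM), Ndrg1 (3875 ± 50.4 to 423 ± 19.4 CPM), and Scd2 (stearoyl-CoA desaturase, 4644 ± 114 to 1529 ± 88.1 CPM). The gains were led by lipid carriers and lysosomal proteins. Apod, an apolipoprotein, had 3506, 3924, and 3444 CPM in contralateral and 12514, 7409, and 8401 CPM in injured nerves (log2 fold change 1.38, standard error 0.16, adjusted p = 9.59e-06, quasi-likelihood test of edgeR). Apoe rose from 921 ± 64.6 to 6612 ± 842 CPM, Psap (prosaposin) from 1085 ± 37.5 to 5498 ± 241 CPM, and the lysosomal proteases Ctsb and Ctsd from 579 ± 6.65 to 4225 ± 285 CPM and from 389 ± 26.9 to 3041 ± 230.4 CPM. Abca1, which exports cholesterol from cells, rose from 46.6 ± 8.58 to 1973 ± 177 CPM, and its injured libraries at 2145, 1982, and 1791 CPM lay far above the contralateral ones at 55.3, 38.1, and 46.5 CPM. Vim (vimentin) rose from 2307 ± 58.8 to 6227 ± 319 CPM, Igfbp5 from 892 ± 75.7 to 4432 ± 961 CPM, and the elongation factor gene Eef1a1 from 3773 ± 96.2 to 7534 ± 175 CPM. Eef1a1 has many near-identical pseudogenes, and Ctsd shares 34.4% of its exon bases with a gene on the same strand, so their counts depend on how reads were shared out. The mitochondrial gene mt-Nd1 was also among the 10, with 7249, 8599.8, and 7861 CPM in contralateral and 8644, 9671, and 13452 CPM in injured nerves (log2 fold change 0.42, standard error 0.14, adjusted p = 0.0165, quasi-likelihood test of edgeR). Injured 3 stood apart for it, and the log2 fold change was 0.24 without that library, below the 1.2-fold limit. The call was also lost with the exact test of edgeR (adjusted p = 0.0541) and, in the quasi-likelihood test, without control contralateral 1 (adjusted p = 0.0848) or 3 (adjusted p = 0.0569).

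All 20 structural myelin genes fell, where 32.9% of all tested genes did, with a median log2 fold change of -3.78, against -0.00153 for all tested genes. Each of the 20 was counted on both sides (50 counts or more in at least 2 libraries of each), and in each of them all injured libraries lay below all contralateral ones. Mbp, which encodes the myelin basic protein, had 23868, 24105, and 21781 CPM in contralateral and 701, 682, and 514 CPM in injured nerves (log2 fold change -5.20, standard error 0.12, adjusted p = 5.01e-11, quasi-likelihood test of edgeR). Pmp22 (ENSMUSG00000018217, chromosome 11 of GRCm38, 63128982 to 63159547), which encodes a protein of compact myelin, had 19830.0, 21464, and 18719 CPM in contralateral and 381, 482, and 396 CPM in injured nerves. For both genes the highest injured library lay far below every contralateral one. Together the 20 genes made up 9.49% to 10.2% in contralateral and 0.479% to 0.594% in injured nerves of all counts. Among the largest falls were those of Ncmap (-6.76 ± 0.32), a noncompact myelin protein, Drp2 (-6.52 ± 0.14), which sits with Prx in the outer membrane of the SC, Prx itself (-5.71 ± 0.20), and the claudin of SC tight junctions Cldn19 (-5.08 ± 0.17). Mag, the adhesion molecule that faces the axon, fell from 332 ± 12.9 to 24.2 ± 9.19 CPM, and Pllp fell from 529.7 ± 41.2 to 35.8 ± 2.7 CPM, where 54.2% of the Pllp exon bases overlap a gene on the other strand. Among the smallest falls were those of Gjb1 or connexin 32 (-0.65 ± 0.09), Gldn (-0.76 ± 0.10), and Mpp6 (-1.19 ± 0.17).

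The transcription factors of myelination did not move together. Of 12 listed and tested, 3 rose, 3 fell, and 6 were not called, with a median of -0.05 that turned positive with upper quartile scaling (0.04) and with library totals (0.15). Among all tested genes 32.4% were higher and 32.9% lower. Egr2 (Krox20), required for myelination, had 384, 435, and 409 CPM in contralateral and 35.8, 39.9, and 36.8 CPM in injured nerves (log2 fold change -3.45, standard error 0.11, adjusted p = 1.48e-10, quasi-likelihood test of edgeR). Sox10, the lineage factor that SCs need at every stage, fell less, from 652 ± 40.6 to 430.1 ± 44.3 CPM (log2 fold change -0.60, standard error 0.11). Nab1, a cofactor of Egr2, fell from 127 ± 12.1 to 52.6 ± 5.86 CPM, whereas its relative Nab2 was not called (53.4 ± 5.99 to 46.3 ± 7.18 CPM, adjusted p = 0.194, quasi-likelihood test of edgeR). Pou3f1 (Oct6), a factor of promyelinating SCs, rose instead and had 11.4, 19, and 17.5 CPM in contralateral and 97.2, 134, and 136 CPM in injured nerves (log2 fold change 2.93, standard error 0.18). Zeb2 (0.85 ± 0.11) and Mef2c (0.50 ± 0.16) also rose. Srebf1, Tead1, Nfatc4, Pou3f2, and Yy1 were not called.

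**Figure D2:**
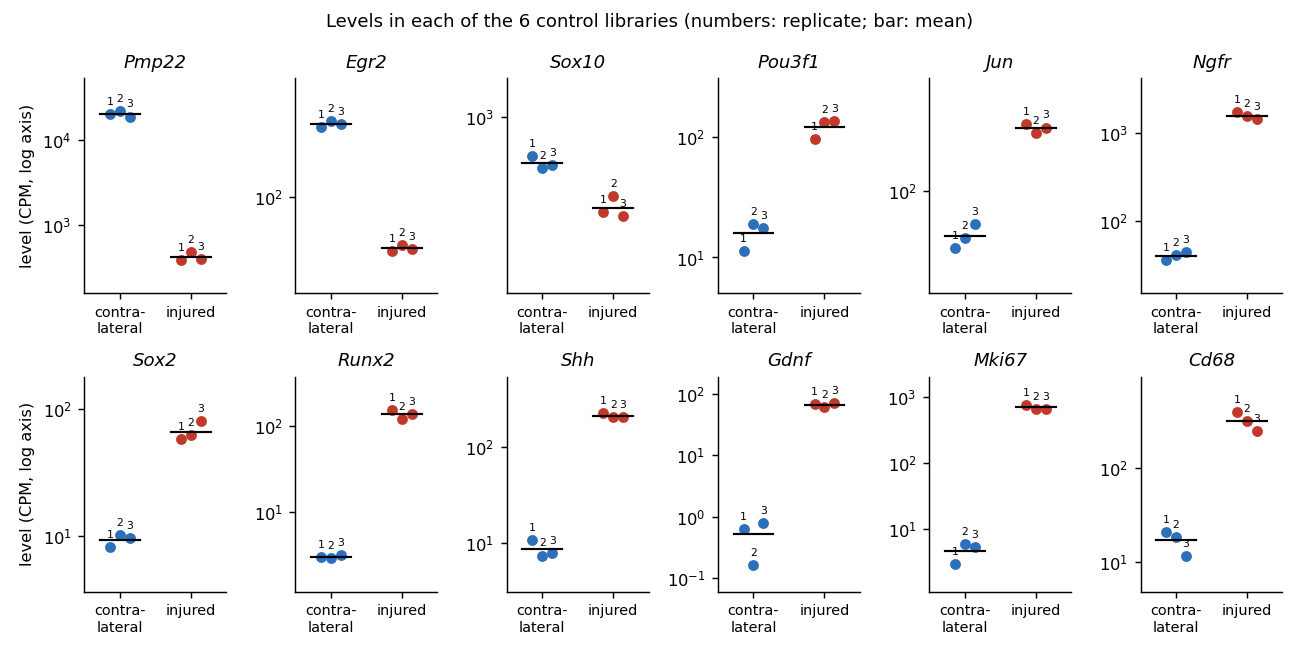
Levels of 12 genes in the 6 control libraries, in CPM on a log axis that differs between panels. Each point is 1 library marked with its replicate number, and the bar is the mean of 3. In each panel the contralateral and injured points do not overlap.

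Sterol synthesis fell almost as a whole. Of the 23 genes of the pathway and its regulators, 22 fell and 1 rose, with a median of -2.66. Of the 22 counted on both sides 21 fell and 1 rose. The summed level of the pathway was 4534, 4861, and 5108 CPM in contralateral and 511, 537, and 503 CPM in injured nerves, so that the groups lay far apart. Hmgcs1, which makes the precursor of mevalonate, had 989.8, 1145, and 1174 CPM in contralateral and 49.3, 52.3, and 49.3 CPM in injured nerves (log2 fold change -4.45, standard error 0.12, adjusted p = 8.00e-11, quasi-likelihood test of edgeR). Idi1 (-3.95 ± 0.14), Cyp51 (-3.45 ± 0.10), Msmo1 (-3.09 ± 0.10), and Sqle (-2.66 ± 0.10) fell with it. So did Insig1 (-2.90 ± 0.13) and Srebf2, the transcription factor that drives the pathway (-2.38 ± 0.13). Dhcr7 fell least (-0.75 ± 0.16), and Ebp was the gene that rose (25.1 ± 0.272 to 36.1 ± 3.65 CPM, log2 fold change 0.52 ± 0.13).

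Promoters of this pathway are shown because their members fell together. RefSeq promoters of GRCm38.p6, 250 bases before to 50 after the start, were matched for 17 of the 23 sterol genes and for 9636 of the 12430 tested genes. The CCAAT box (letters CCAAT on either strand) was found in 15 of the 17 (88.2%), against 38.8% of all tested promoters, 40.0% of those of genes called higher, and 36.4% of those called lower. The sterol motif TCACNCCAC was found in 1 of the 17 (5.88%) and in 1.06% of all. The 4 stretches below come from the sterol genes with the smallest p that hold a CCAAT box before the start, with 12 bases on either side. They are written 5′ to 3′ on the strand of the gene, with CCAAT or its complement ATTGG and, in Hmgcs1, the sterol motif in capitals. The positions are chr13:119690202-119690322 on the plus strand for Hmgcs1, chr5:4104710-4104738 on the minus strand for Cyp51, chr8:64733617-64733645 on the minus strand for Msmo1, and chr13:8885549-8885577 on the plus strand for Idi1.
Hmgcs1: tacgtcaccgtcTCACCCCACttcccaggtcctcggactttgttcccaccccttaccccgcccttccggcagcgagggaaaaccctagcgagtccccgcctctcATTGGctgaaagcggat
Cyp51: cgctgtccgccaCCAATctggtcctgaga
Msmo1: gagtggggcggaCCAATtacgacaggcga
Idi1: tgcctccagctgATTGGcgagcccgggca

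Synthesis of fatty acids and sphingolipids fell as well, but less evenly. Of 25 genes 22 fell, 1 rose, and 2 were not called, with a median of -1.52. Fa2h, which makes the 2-hydroxy fatty acids of myelin galactolipids, had 926, 966, and 733 CPM in contralateral and 6.42, 11.3, and 7.87 CPM in injured nerves (log2 fold change -6.68, standard error 0.22, adjusted p = 2.09e-10, quasi-likelihood test of edgeR). Ugt8a, the enzyme that makes galactosylceramide, fell from 888 ± 91.8 to 62.4 ± 5.53 CPM, and the elongase genes Elovl6 and Elovl7 from 423 ± 33.2 to 25.6 ± 2.19 CPM and from 164 ± 11.9 to 15.3 ± 2.63 CPM. Fasn (-1.67 ± 0.10), Acaca (-1.72 ± 0.11), and Acly (-0.92 ± 0.11), the enzymes of fatty acid synthesis itself, fell by smaller amounts. Ugcg, which makes glucosylceramide in place of galactosylceramide, was the gene that rose, with 14, 14.7, and 13.7 CPM in contralateral and 41.1, 34.2, and 38.7 CPM in injured nerves. Elovl5 and Sptlc1 were not called.

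Regulators and markers of repair and immature SCs rose. Of 24 listed genes, 21 were tested, 18 rose, 2 fell, and 1 was not called, with a median of 2.78. Olig1, Bdnf, and Pax3 were not tested, with at most 23, 7, and 4 counts in an injured library and 0 in the contralateral ones. Of the 16 genes counted on both sides 13 rose and 2 fell. Jun (ENSMUSG00000052684, chromosome 4 of GRCm38, 95049034 to 95052222), the gene of c-Jun, had 36.3, 43.9, and 55.8 CPM in contralateral and 335, 284, and 312 CPM in injured nerves (log2 fold change 2.78, standard error 0.15, adjusted p = 9.86e-09, quasi-likelihood test of edgeR). Ngfr, the p75 neurotrophin receptor, had 35.9, 40.4, and 43.5 CPM in contralateral and 1738, 1553, and 1436 CPM in injured nerves (log2 fold change 5.30, standard error 0.13). Sox2, an inhibitor of myelination, had 8.11, 10.1, and 9.64 CPM in contralateral and 57.1, 61.4, and 79.3 CPM in injured nerves (log2 fold change 2.83, standard error 0.16). For all 3 genes the lowest injured library lay more than 5 times above the highest contralateral one.

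Several of these genes were close to silent in contralateral nerves. Gdnf, a neurotrophic factor, had 0.638, 0.164, and 0.779 CPM in contralateral and 67.9, 61.2, and 69.4 CPM in injured nerves (log2 fold change 6.99, standard error 0.26). Runx2 had 3.01, 2.87, and 3.12 CPM in contralateral and 151, 118, and 135 CPM in injured nerves (log2 fold change 5.49, standard error 0.14), and Shh had 10.8, 7.45, and 7.99 CPM in contralateral and 223, 204, and 202 CPM in injured nerves (log2 fold change 4.58, standard error 0.13). Shh exons overlap 2 genes on the other strand over 15.7% and 12.7% of their bases, and strand use in counting was not stated. Hmga2, a chromatin protein of embryonic cells, rose from 0.996 ± 0.642 to 272 ± 15.7 CPM, Sox4 from 5.13 ± 1.18 to 141 ± 6.69 CPM, and Atf3 from 11.2 ± 1.53 to 167 ± 43.1 CPM. Artn, a ligand of the Gdnf family, had 1 count in the contralateral libraries together and 5.08, 4.05, and 8.45 CPM in injured nerves, a ratio of 194 (95% counting interval 34.8 to 7661). Cdh2 (-0.88 ± 0.09) and Ncam1 (-0.61 ± 0.12), adhesion molecules listed as immature SC markers, fell, and Nes was not called (1168 ± 34.6 to 1311 ± 190.2 CPM, adjusted p = 0.211, quasi-likelihood test of edgeR).

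Trophic factors and cytokines of the injured nerve split into both directions. Of 30 listed genes 19 were tested, of which 12 rose and 6 fell, with a median of 2.51 (1.08 without control injured 1 and 0.96 without control injured 3). Among all tested genes 32.4% were higher and 32.9% lower, so the number that fell was near that share. Among the 13 counted on both sides 6 rose and 6 fell, with a median of 0.50. Clcf1, a cytokine of the interleukin 6 family, had 6.38, 4.67, and 2.63 CPM in contralateral and 183, 197, and 199 CPM in injured nerves (log2 fold change 5.39, standard error 0.19, adjusted p = 3.93e-10, quasi-likelihood test of edgeR). Btc, betacellulin, rose from 0.325 ± 0.0737 to 99.3 ± 12.7 CPM, Ucn2 from 0.314 ± 0.273 to 47.2 ± 3.05 CPM, Tgfb1 from 11.9 ± 1.84 to 116 ± 8.1 CPM, and Igf1 from 14.2 ± 1.06 to 81 ± 14.5 CPM. Cntf went the other way and had 966, 1036, and 877 CPM in contralateral and 19.3, 15.7, and 17.5 CPM in injured nerves (log2 fold change -5.78, standard error 0.14). Of the Cntf exon bases 78.9% are shared with Zfp91 on the same strand, so this value depends on how reads were divided between both genes. Tgfa (-2.36 ± 0.10), Fgf7 (-1.58 ± 0.11), Fgf2 (-1.28 ± 0.10), Hbegf (-1.01 ± 0.15), and Spp1 (-0.85 ± 0.10) fell too. Il6, Il1b, and Tnf were not tested, at no more than 1, 16, and 24 counts in an injured library and 0 in contralateral ones.

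The Hedgehog ligands moved in opposite directions. Shh rose from 8.76 ± 1.82 to 209.6 ± 11.4 CPM, whereas Dhh, the ligand that SCs make in intact nerves, fell from 316 ± 37.9 to 83.7 ± 8.95 CPM and had 79.1, 94, and 78 CPM in injured against 358, 309, and 283 CPM in contralateral nerves. Dhh exons overlap other genes on either strand (25.2% and 12.4% of the bases). Of the 12 tested genes of the pathway 1 rose and 7 fell, where 32.4% and 32.9% of all tested genes did. The number that rose was 2 without control injured 3 or with library totals. The receptor gene Ptch1 fell from 217 ± 16.2 to 103 ± 28.5 CPM, the signal transducer Smo from 98.1 ± 1.95 to 57.3 ± 2.98 CPM, and the transcription factor Gli1, a known target of the pathway, from 55.1 ± 9.69 to 25.4 ± 3.1 CPM. The co-receptors Cdon (-2.20 ± 0.18) and Boc (-2.11 ± 0.38) and Gli2 (-1.94 ± 0.21) fell further, and Gas1, Gli3, and Sufu were not called.

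Genes of cell division rose in nearly every case. Of 40 genes of DNA replication 39 were tested and 38 rose, with a median of 2.33. Of 45 genes of mitosis all were tested and 44 rose, where 32.4% of all tested genes did, with a median of 5.93. Many of them passed the count filter through the injured libraries alone, which favors a call in that direction. Counted on both sides were 25 replication genes, of which 24 rose (median 2.00), and 10 mitosis genes, of which 9 rose (median 2.96). Mki67 (ENSMUSG00000031004, chromosome 7 of GRCm38, 135689784 to 135716361), the gene of the proliferation marker Ki-67, had 3.01, 5.98, and 5.36 CPM in contralateral and 776, 666, and 675 CPM in injured nerves (log2 fold change 7.20, standard error 0.22, adjusted p = 1.29e-10, quasi-likelihood test of edgeR). Cdk1, the kinase that starts mitosis, had 0, 0.0819, and 0.39 CPM in contralateral and 88.9, 81.4, and 94.8 CPM in injured nerves, and its cyclin gene Ccnb1 had 0.0911, 0.0819, and 0.292 CPM in contralateral and 63, 65.9, and 68.1 CPM in injured nerves. Top2a, a topoisomerase of dividing cells, rose from 1.59 ± 1.04 to 312 ± 7.44 CPM and Rrm2, which makes deoxynucleotides, from 0.447 ± 0.329 to 127 ± 6.69 CPM. The helicase subunit genes Mcm2 (3.95 ± 0.19), Mcm5 (3.69 ± 0.17), and Mcm6 (3.14 ± 0.19) rose, as did Pcna (64.7 ± 4.91 to 216 ± 2.79 CPM). The members that were not called were Gins4 (30.7 ± 3.03 to 30.4 ± 2.19 CPM) and Pttg1 (27.8 ± 4.54 to 22.6 ± 1.77 CPM). The summed level of the mitosis list was 207, 221, and 203 CPM in contralateral and 4407, 4182, and 4366 CPM in injured nerves, with injured libraries close to each other. The libraries do not show which cells of the nerve divided.

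Because the mitosis genes rose together, their promoters were searched for the CHR element of cell cycle genes (letters TTTGAA or TTCGAA, either strand). Of 37 matched mitosis promoters 27 (73.0%) held it, against 13.5% of all tested promoters and 15.5% of those called higher. A CCAAT box was found in 29 of the 37 (78.4%), and both elements were found in 24 (64.9%), against 5.74% of all tested promoters. In the 32 matched replication promoters both were found in 18.8%, and the E2F motif (TTTNGCGC, which includes TTTGGCGC) in 8 (25%), against 2.46% of all tested promoters. These shares describe letters within 300 bases and were not tested. The AP-1 motif TGANTCA was found in 5.13% of promoters of genes called higher, 4.94% of those called lower, and 4.67% of all. Shown first are the 5 mitosis genes with the smallest p that hold both elements before the start, spanning the nearest pair with 12 bases on either side. Capitals mark TTTGAA or its complement TTCAAA, and CCAAT or ATTGG. They lie at chr19:37376325-37376380 on the plus strand (Kif11), chr7:135716478-135716532 on the minus strand (Mki67), chr9:70421625-70421733 on the minus strand (Ccnb2), chr10:69352966-69353004 on the minus strand (Cdk1), and chr2:164769860-164769917 on the plus strand (Ube2c) of GRCm38.p6.
Kif11: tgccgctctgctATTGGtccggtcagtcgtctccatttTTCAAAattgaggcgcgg
Mki67: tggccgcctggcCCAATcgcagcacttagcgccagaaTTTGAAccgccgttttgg
Ccnb2: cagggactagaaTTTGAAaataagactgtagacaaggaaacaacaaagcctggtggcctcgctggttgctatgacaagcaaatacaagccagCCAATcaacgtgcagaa
Cdk1: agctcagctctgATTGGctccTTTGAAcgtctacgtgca
Ube2c: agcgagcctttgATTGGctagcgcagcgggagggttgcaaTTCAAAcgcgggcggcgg
Both replication genes shown next, Mcm5 at chr8:75109348-75109379 on the plus strand and Mcm6 at chr1:128359733-128359764 on the minus strand, have the E2F motif in capitals, 2 overlapping matches in Mcm5 and 1 in Mcm6.
Mcm5: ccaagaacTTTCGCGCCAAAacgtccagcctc
Mcm6: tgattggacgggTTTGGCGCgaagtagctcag

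**Figure D3:**
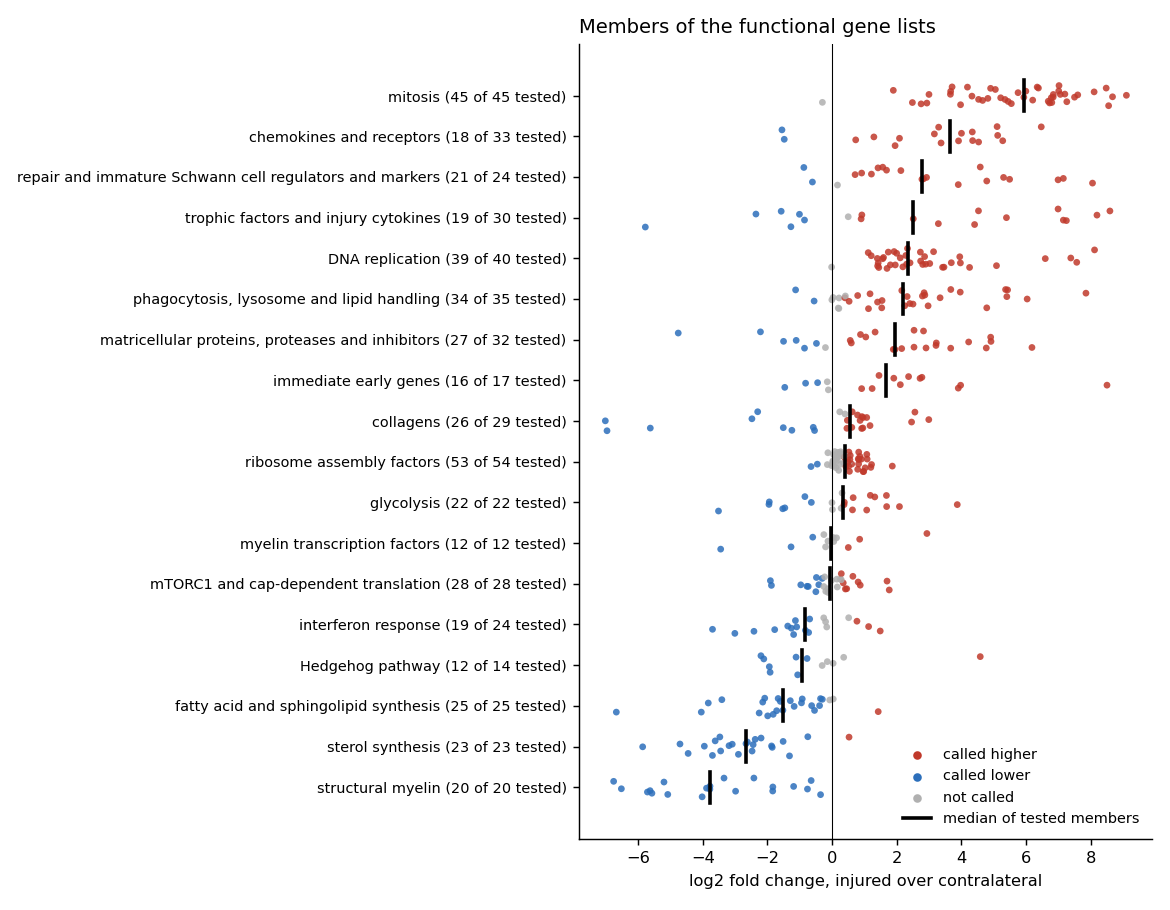
Log2 fold changes of injured over contralateral control nerves (x axis) for the tested members of 18 functional gene lists (y axis, ordered by median). Each point is 1 gene, red where called higher, blue where called lower, and grey where not called, and the black bar is the median of the tested members. Mitosis stands at the top with a median of 5.93 and structural myelin at the bottom with -3.78.

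Transcripts of the mTORC1 pathway, whose scaffold protein Raptor is encoded by the gene that is floxed in these mice, did not move as a group. Its members were called about as often as all tested genes (32.4% higher and 32.9% lower). RNA levels do not measure the activity of the pathway. The study took phosphorylation of the ribosomal protein S6 as its measure of activity and found it raised in crushed control nerves at 5 dpc. Rptor itself had 52.2, 52.7, and 43.6 CPM in contralateral and 41.8, 47.7, and 34.8 CPM in injured nerves and was not called (log2 fold change -0.26, standard error 0.14, adjusted p = 0.114, quasi-likelihood test of edgeR). The groups overlapped. Of 28 genes of mTORC1 and cap-dependent translation 9 rose, 9 fell, and 10 were not called, with a median of -0.07 that turned positive with upper quartile scaling (0.01) and with library totals (0.13). Mtor, Mlst8, and Rheb were not called, whereas the inhibitors Tsc1 (-0.74 ± 0.11), Tsc2 (-0.50 ± 0.09), and Deptor (-1.91 ± 0.08) fell. The initiation factor gene Eif4a1 rose from 157 ± 5.87 to 510.4 ± 13 CPM, and Eif4ebp1, which restrains cap-dependent translation, from 13 ± 0.799 to 44 ± 10.8 CPM. Of 53 tested ribosome assembly factors 26 rose, 2 fell, and 25 were not called, with a median of 0.41. With library totals 39 rose and 1 fell. Npm1 (nucleophosmin) had 153, 152, and 154 CPM in contralateral and 337, 323, and 411 CPM in injured nerves, Ncl (nucleolin) rose from 283 ± 13.55 to 501 ± 38.6 CPM, Fbl (fibrillarin) from 18.5 ± 1.66 to 37.6 ± 5.32 CPM, and Nhp2 from 7.89 ± 0.599 to 28.7 ± 3.61 CPM. Nop14 (-0.65 ± 0.12) and Gnl3l (-0.46 ± 0.12) fell.

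Glycolysis genes changed in both directions, with 11 of 22 higher, 7 lower, and 4 not called. Among all tested genes 32.4% were higher and 32.9% lower, so the number that fell was near that share. Pairs of isoenzymes parted. Hk2, a hexokinase, rose from 7.45 ± 0.807 to 31.5 ± 5.66 CPM while Hk1 fell from 207 ± 2.86 to 115 ± 18 CPM. Pfkp rose from 26.5 ± 4.14 to 85.2 ± 6.25 CPM while Pfkm, which shares 10.2% of its exon bases with another gene, fell from 59 ± 1.61 to 15.2 ± 1.998 CPM. For lactate dehydrogenase Ldha had 87.2, 76.4, and 89.4 CPM in contralateral and 207, 222, and 202 CPM in injured nerves, and Ldhb had 599, 616, and 591 CPM in contralateral and 137, 172, and 160.0 CPM in injured nerves. The lactate carrier gene Slc16a3 rose from 0.733 ± 0.248 to 11 ± 2.99 CPM, and Slc16a1 fell from 77.8 ± 15.6 to 27 ± 8.17 CPM. Of the glucose transporter genes Slc2a3 rose (1.68 ± 0.28) and Slc2a1, also a marker of perineurial cells, fell (-1.46 ± 0.11). Aldoc fell most (-3.52 ± 0.48, -4.30 without control injured 1).

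Genes of phagocytosis, lysosomes, and lipid handling rose. Of 35 listed 34 were tested, 26 rose, 2 fell, and 6 were not called, with a median of 2.20 (1.54 over the 31 counted on both sides, of which 23 rose and 2 fell). The number that fell was 1 without control injured 1 or 3 or control contralateral 1 or 3. Lgals3, galectin 3, had 31.6, 28.2, and 25.9 CPM in contralateral and 1710.0, 1897, and 2001 CPM in injured nerves (log2 fold change 6.03, standard error 0.13, adjusted p = 4.33e-11, quasi-likelihood test of edgeR). Gpnmb rose from 39.9 ± 11.1 to 1096 ± 142 CPM, Trem2, a lipid-sensing receptor of macrophages, from 2.65 ± 0.728 to 116 ± 18.2 CPM, and Atp6v0d2, a subunit of the proton pump, from 0.453 ± 0.116 to 106 ± 15.7 CPM. Megf10, an engulfment receptor, rose from 17.9 ± 4.9 to 226 ± 23.9 CPM, and Plin2, a coat protein of lipid droplets, from 26.2 ± 2.24 to 265 ± 18.6 CPM. Receptors of the TAM family differed. Axl rose from 157 ± 7.99 to 698 ± 62.6 CPM, whereas Mertk was not called (163 ± 34.6 to 162 ± 8.75 CPM), nor was Tyro3 (6.49 ± 0.661 to 8.63 ± 2.39 CPM). Of their ligands Pros1 rose from 62 ± 4.63 to 310.1 ± 8.8 CPM, and Gas6 fell from 210.5 ± 83.5 to 96.1 ± 12.9 CPM. The call of Gas6 was lost when all 13 libraries were fitted together (adjusted p = 0.052, quasi-likelihood test of edgeR). The transcription factor Tfeb fell (-0.56 ± 0.20).

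Markers of macrophages and monocytes rose. Of 24 listed 22 were tested and 21 rose, with a median of 4.09. Of the 11 counted on both sides 11 rose. Their summed level was 289, 267, and 278 CPM in contralateral and 4731, 4638, and 3804 CPM in injured nerves. Cd68 had 21, 18.5, and 11.6 CPM in contralateral and 386, 315, and 245 CPM in injured nerves (log2 fold change 4.21, standard error 0.22, adjusted p = 8.54e-09, quasi-likelihood test of edgeR). Lyz2 rose from 65.2 ± 6.38 to 1910.4 ± 156 CPM, C1qa and C1qb, subunits of complement C1q, from 25 ± 1.99 to 376 ± 42.9 CPM and from 24.6 ± 1.11 to 425 ± 57.9 CPM, Itgam from 2.01 ± 0.685 to 86.7 ± 12.6 CPM, and Csf1r from 29.5 ± 5.7 to 218 ± 63.1 CPM. The smallest changes were those of Lyve1 (3.41 ± 0.695 to 7.27 ± 5.11 CPM, not called) and Cd163 (28 ± 1.84 to 48.9 ± 27.2 CPM), both known from resident macrophages. Injured 3 held the lowest sum of these markers. Many genes of the phagocytosis list are expressed by macrophages as well as by SCs, and the part of macrophages in their rise was not tested.

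Most of the chemokines and receptors that could be tested rose. Of 33 listed 18 were tested, 16 rose, and 2 fell, and of the 6 counted on both sides 4 rose and 2 fell, so that most of those tested passed the count filter through the injured libraries alone. Ccl9 had 5.1, 5.89, and 9.35 CPM in contralateral and 156, 85.9, and 82.2 CPM in injured nerves, Ccl6 rose from 5.97 ± 0.864 to 121 ± 33.1 CPM, Ccl2, which attracts monocytes, from 1.88 ± 0.951 to 27.9 ± 6.8 CPM, and its receptor gene Ccr2 from 2.38 ± 0.209 to 48.4 ± 10.3 CPM. Cxcl16 rose from 4.73 ± 0.481 to 49.1 ± 1.7 CPM, with 18.3% of its exon bases under a gene on the other strand. Those that fell were Cxcl12 (125 ± 3.53 to 44.7 ± 6.74 CPM) and its scavenger receptor Ackr3 (64.3 ± 19.1 to 21.9 ± 5.16 CPM), while the other Cxcl12 receptor gene, Cxcr4, rose (4.01 ± 0.0861 to 35.9 ± 4.69 CPM). Antigen presentation genes rose too, with 8 of 9 higher in a list of dendritic cell genes (4 of the 5 counted on both sides), among them Cd74 (93.1 ± 7.6 to 429 ± 102 CPM), H2-Aa (36.2 ± 8.85 to 192 ± 16.2 CPM), and Itgax (0.476 ± 0.334 to 24.5 ± 4.46 CPM). Zbtb46, a factor of dendritic cells that endothelium also expresses, fell (16.1 ± 0.96 to 4.58 ± 0.606 CPM).

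Other leukocytes were scarce at this depth. Of 12 neutrophil markers 2 were tested. Csf3r rose from 1.55 ± 1.07 to 39.5 ± 5.99 CPM, and Retnlg had 0 counts in contralateral nerves and 5.71, 5.4, and 4.37 CPM in injured nerves, at least 19.2-fold higher. Both passed the count filter through the injured libraries alone, which favors a call in that direction. Ly6g, Mpo, Elane, Camp, and Ngp were at 0 in every library. Of 12 T and NK cell markers Cd4, which macrophages can also express, was the 1 tested (1.24 ± 0.57 to 15.9 ± 7.34 CPM). Cd4 too passed the count filter through the injured libraries alone. Cd8a was at 0 in every library, and no library held more than 2 counts of Cd3e, Cd3d, or Cd3g. Of 6 B cell markers Ighm was the 1 tested (7.05 ± 1.48 to 13.5 ± 2.09 CPM). Beside the rise of Gzmb described above, the summed level of these 12 T and NK markers was 3.19, 2.46, and 1.85 CPM in contralateral and 27.7, 19.99, and 11.3 CPM in injured nerves. Cd4 alone held 1.82, 1.23, and 0.682 CPM of the contralateral and 22.5, 17.2, and 7.97 CPM of the injured sums. The part of T and NK cells in the rise of Gzmb was not tested. The 6 tested mast cell markers had adjusted p-values from 0.132 (Gata2) to 0.97 (Tpsb2) in edgeR's quasi-likelihood test, and their summed levels overlapped, at 19.7 to 71.8 CPM in contralateral and 12 to 57.4 CPM in injured nerves.

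Interferon response genes mostly fell, unlike the macrophage and chemokine lists. Of 24 listed 19 were tested, 12 fell, 3 rose (1 without control injured 2), and 4 were not called, with a median of -0.83. Ifit3 had 75.5, 59.9, and 74.3 CPM in contralateral and 9.45, 13.3, and 16.5 CPM in injured nerves (log2 fold change -2.42, standard error 0.18, adjusted p = 2.58e-07, quasi-likelihood test of edgeR). Rsad2 fell from 16.9 ± 5.58 to 1.29 ± 0.184 CPM, Ifit1 from 17.8 ± 4.23 to 2.22 ± 1.8 CPM, and Cmpk2 from 10.6 ± 0.515 to 3.09 ± 0.443 CPM. Oas1a (1.49 ± 0.41), Oas2 (1.13 ± 0.27), and Bst2 (0.77 ± 0.30) rose. Of the 11 that were counted on both sides 7 fell and 1 rose.

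Immediate early genes were mostly higher at 5 dpc. Of 16 tested 11 rose and 3 fell, where 32.4% and 32.9% of all tested genes did, with a median of 1.68. Of the 14 counted on both sides 9 rose and 3 fell. Fosl1, an AP-1 subunit, had 0.182, 0.164, and 0 CPM in contralateral and 50.3, 47.5, and 44.2 CPM in injured nerves (log2 fold change 8.50, standard error 0.30, adjusted p = 3.85e-10, quasi-likelihood test of edgeR), and 57.2% of its exon bases lie under Ccdc85b on the other strand. Fos rose from 5.85 ± 1.12 to 92.2 ± 7.07 CPM, Fosl2 from 48.8 ± 5.89 to 211 ± 16 CPM, Myc from 9.01 ± 0.486 to 46.5 ± 3.48 CPM, and Junb from 9.68 ± 1.65 to 36.3 ± 3.43 CPM, while Jund was not called (69.5 ± 8.67 to 64.1 ± 7.71 CPM). Nr4a1 (182 ± 3.06 to 66.1 ± 4.57 CPM), Dusp1 (-0.82 ± 0.14), and Zfp36 (-0.45 ± 0.11) fell.

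Genes of the extracellular matrix changed in both directions. Of 26 tested collagen genes 15 rose and 9 fell, where 32.4% and 32.9% of all tested genes did, with a median of 0.54. Col18a1, a basement membrane collagen, had 126, 138, and 123 CPM in contralateral and 1043, 1089, and 937 CPM in injured nerves (log2 fold change 2.99, standard error 0.11, adjusted p = 6.10e-10, quasi-likelihood test of edgeR), and Col5a2 and Col8a1 rose from 229 ± 17.6 to 1258 ± 56.1 CPM and from 33 ± 9.19 to 194 ± 54 CPM. Fibrillar Col1a1 rose from 1014 ± 137 to 1958 ± 387 CPM and Col3a1 from 798 ± 108 to 1504 ± 374 CPM. Col23a1 fell from 583 ± 44 to 11.8 ± 3.08 CPM, Col24a1 from 157 ± 19.6 to 1.22 ± 0.881 CPM, and Col8a2 from 51.1 ± 7.63 to 0.396 ± 0.129 CPM, and the basement membrane chains Col4a1 and Col4a2 fell by 1.25 and 1.51 on the log2 scale. Among matricellular proteins, proteases, and inhibitors 20 of 27 rose and 6 fell, with a median of 1.94, and of the 20 counted on both sides 13 rose and 6 fell, with a median of 0.958. Tnc, tenascin C, had 21, 17.5, and 18.6 CPM in contralateral and 559, 486, and 510.4 CPM in injured nerves, Thbs2 rose from 29.7 ± 5.7 to 886 ± 140.1 CPM, Timp1 from 2.4 ± 0.976 to 178 ± 9.77 CPM, Adamts4 from 2.31 ± 0.219 to 69.7 ± 10.6 CPM, and Mmp14 from 48 ± 3.45 to 359 ± 15 CPM. Lox, which crosslinks collagen, fell from 676 ± 103 to 25 ± 4.81 CPM, and Timp3 from 2231 ± 63.1 to 1032 ± 85.3 CPM. Mmp9 was not tested, with at most 73 counts in an injured library and 26 in a contralateral one.

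Marker lists of the structural cells of the nerve had negative medians, closer to 0 than that of the myelin genes. All 8 perineurial markers fell, with a median of -2.13 (-2.85 without control injured 3) and summed levels of 1451 to 1688 CPM in contralateral and 599 to 662 CPM in injured nerves. The 4 counted on both sides had a median of -1.48. Cldn1 (85.1 ± 27.4 to 22.9 ± 9.92 CPM) and Itgb4 (714 ± 49 to 254 ± 35.6 CPM) were among them. Of 11 tested pericyte and vascular smooth muscle markers 10 fell, with a median of -0.71, of which Tagln fell most (231 ± 23.4 to 32.6 ± 12.5 CPM), with 62.4% of its exon bases under a gene on the other strand. Of 16 endothelial markers 9 fell and 2 rose, with a median of -0.64, and 1 rose when any control library but injured 1 was left out. Kdr, the main VEGF receptor, fell from 47.3 ± 1.53 to 15.2 ± 3.28 CPM, Cldn5 from 80.6 ± 4.91 to 25.6 ± 4.23 CPM, while Pecam1 was not called (111 ± 5.78 to 103 ± 24.2 CPM) and Plvap, a protein of leaky capillaries, rose from 6.44 ± 5.93 to 23.3 ± 5.5 CPM (log2 fold change 1.88, 2.92 without control contralateral 3). Of 12 fibroblast markers 6 fell and 1 rose (2 without control injured 2 or 3), with a median of -0.55. Of the 10 counted on both sides 4 fell and 1 rose, with a median of -0.23, where 32.9% of all tested genes fell. Dcn fell from 2827 ± 396 to 1218 ± 355 CPM and Mfap5 from 645 ± 36.5 to 31.9 ± 4.01 CPM. The 3 tested erythrocyte genes fell, but they passed the count filter through the contralateral libraries alone, which favors a call in that direction. Hbb-bs fell from 37.8 ± 11.8 to 4.55 ± 5.48 CPM (log2 fold change -3.07, -4.73 without control injured 3), and Hba-a1 and Hba-a2 are near-identical copies. Erythrocyte sums were 73.9 to 138 CPM in contralateral and 5.8 to 24.6 CPM in injured nerves. Adipocyte sums overlapped, at 64.9 to 194 CPM in contralateral and 8.65 to 105 CPM in injured nerves, and muscle sums stayed at or below 18.6 CPM in every library.

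**Figure D4:**
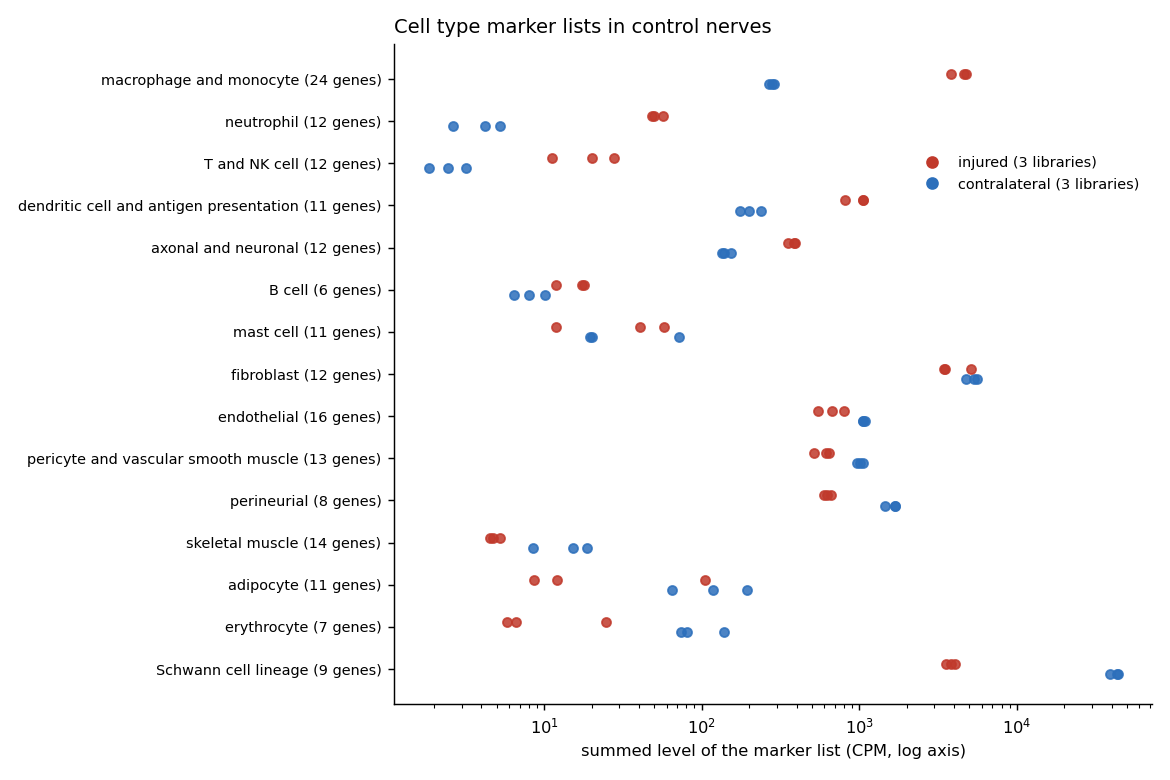
Summed levels of 15 cell type marker lists (y axis) in CPM on a log x axis, with 3 injured libraries in red and 3 contralateral libraries in blue for each list. Injured points lie to the right for macrophages and to the left for perineurial and SC lineage markers, and both colours overlap for mast cells, fibroblasts, and adipocytes.

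Markers of the SC lineage did not move together. Of 9 tested 6 fell, 1 rose, and 2 were not called. Erbb3, the neuregulin receptor (307 ± 15.7 to 315 ± 19.4 CPM), and Cdh19 (524 ± 36.3 to 565 ± 94.2 CPM) were those not called, S100b fell from 835 ± 41.6 to 396 ± 24.2 CPM, and Foxd3, a neural crest factor, rose from 35.7 ± 3.3 to 122 ± 10.9 CPM. Axonal transcripts were few in both groups. Of 12 neuronal markers 7 were tested, and Nefl (6.92 ± 1.77 to 0.298 ± 0.44 CPM), Nefm (6.92 ± 0.825 to 0.243 ± 0.271 CPM), Prph, Stmn2, and Snap25 fell. Of the 3 counted on both sides 2 rose and 1 fell. The other 4 passed the count filter through the contralateral libraries alone, which favors a call in that direction. Tubb3 had 7.93, 6.71, and 7.01 CPM in contralateral and 212, 224, and 211 CPM in injured nerves and rose, although it is used as a neuronal tubulin marker, and Uchl1 rose from 79.6 ± 3.39 to 151 ± 17.9 CPM. Snap25 had 3 counts in the injured libraries together, a ratio of contralateral over injured of 73.1 (95% counting interval 25 to 354).

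Several common reference genes changed with crush, more of them upward than downward. Among all tested genes 32.4% were higher and 32.9% lower. Of 12 listed after the data had been seen, 6 rose, 2 fell (1 without control injured 2), and 4 were not called, with a median of 0.41. Gapdh had 989.8, 959, and 917 CPM in contralateral and 1505, 1589, and 1339 CPM in injured nerves, Actb rose from 962 ± 22.9 to 2150.1 ± 111 CPM, Gusb, a lysosomal enzyme, from 23.9 ± 2.82 to 142 ± 22.3 CPM, and Sdha fell from 249 ± 3.39 to 159.5 ± 3.07 CPM. Tbp (25.2 ± 4.17 to 27 ± 2.03 CPM) and Tuba1a (2151 ± 88.3 to 2419 ± 201 CPM) were not called, and Ywhaz (446 ± 12.9 to 531 ± 12.9 CPM) was within the 1.2-fold limit. With library totals the median was 0.61.

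Whether crush acted differently in control and RaptorKO nerves was tested with an interaction term for genotype and crush in a model of 13 libraries. Every RaptorKO library held few counts of Xist (4 to 17) and many of Y-linked genes (1456 to 2338), unlike both libraries of control 3. Sex was not in the model, and its part in the interaction was not tested. Of 12851 genes tested in these libraries 318 (2.47%) were called, 181 more positive and 137 more negative in controls (quasi-likelihood test of edgeR, Benjamini-Hochberg adjusted). Leaving out control injured 1 or 2 lowered the number to 206 or 169, and leaving out contralateral 1, 2, or 3 of the controls lowered it to 167, 132, or 170. Of the 4032 genes that rose in controls 3442 were also called higher in RaptorKOs, and the effect differed by the interaction, upward in controls for 144 and downward for 6. Of the 4087 that fell 3297 were also called lower, and the effect differed downward in controls for 118 and upward for 19. The median log2 fold change of the rising genes was 0.994 in controls and 0.857 in RaptorKOs, and that of the falling ones was -0.948 and -0.794. These genes were picked by their call in controls, so the pairs of medians describe them and test nothing.

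Mitosis genes made up a visible part of the interaction. Of 45 members 15 rose more in controls, and the number was 10 to 14 when 1 control library was left out. The log2 fold change of Cdk1 was 9.12 in controls and 5.52 in RaptorKOs, and that of Mki67 was 7.22 in controls and 4.79 in RaptorKOs. Cdk1 held 0.158 ± 0.207 CPM in contralateral and 90.2 ± 6.45 CPM in injured controls, against 1.08 ± 0.599 and 48.3 ± 7.75 CPM in RaptorKOs. Its mean levels thus differed between genotypes on both sides, a difference that was not tested here side by side. The contralateral control mean rests on 5 counts in all. Of 20 structural myelin genes 3 (Gjb1, Drp2, and Nfasc) were more negative in controls, and 1 or 2 were when any control library was left out. Gjb1 had 160.2, 144, and 133 CPM in contralateral and 87.8, 101, and 90.05 CPM in injured nerves, and its log2 fold change was -0.62 in controls and 0.68 in RaptorKOs. Kcna1, an axonal potassium channel gene, differed the other way and was -0.85 in controls and -2.72 in RaptorKOs. Bcas1, a protein of myelinating glia, had the smallest interaction p, and its log2 fold change was -3.68 in controls and -1.91 in RaptorKOs. Medians of endothelial markers were -0.611 in controls and 0.0476 in RaptorKOs, and those of pericyte markers -0.68 and 0.106. Interaction calls covered 4 of 16 endothelial genes (Kdr, Tek, Vwf, and Ly6c1) and 3 of 11 pericyte genes (Rgs5, Cspg4, and Notch3), all more negative in controls. The pericyte number was 2 when any control library but contralateral 2 was left out, and 1 without that library. The endothelial number was 1 without control injured 1 or 2 or control contralateral 1 or 2, 2 without control contralateral 3, and 6 without control injured 3.

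**Figure D5:**
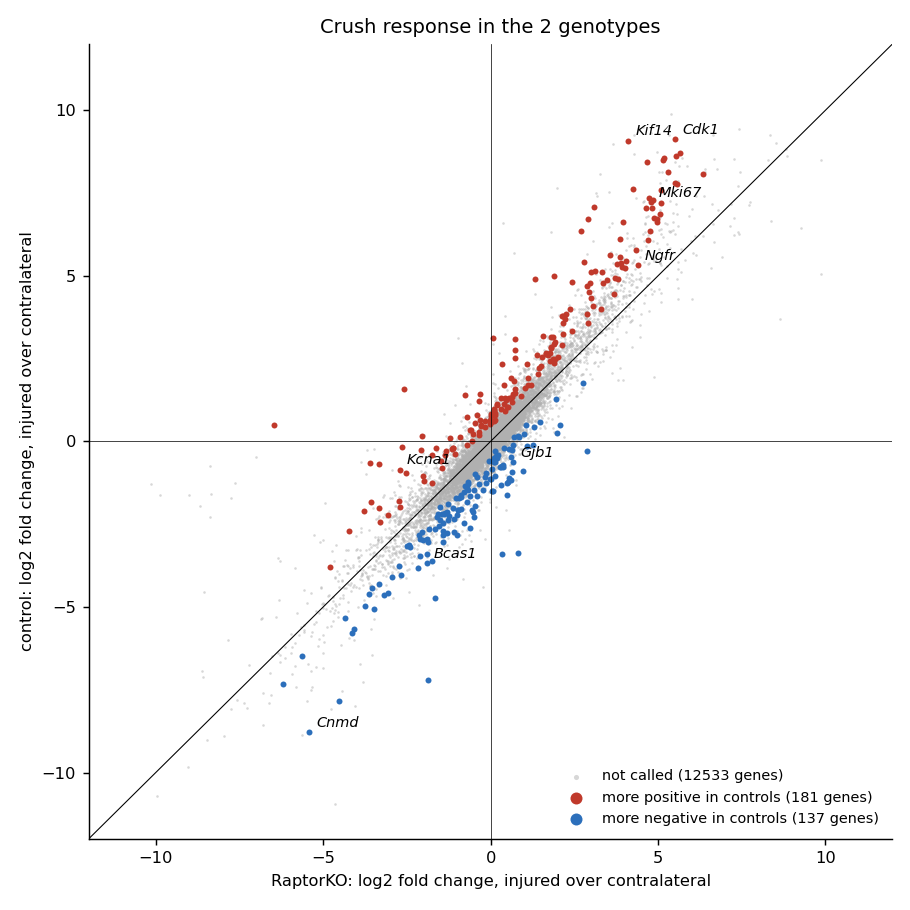
Each point is 1 of 12851 genes, with the log2 fold change of injured over contralateral nerves in RaptorKOs on the x axis and in controls on the y axis, and the diagonal marks equal effects. Red marks the 181 genes whose effect was more positive in controls, and blue the 137 where it was more negative. Mki67 and Cdk1 lie above the diagonal and Bcas1 and Cnmd below it.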

How the data were processed

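Per the labels, total RNA was prepared with an Illumina TruSeq kit, which the study's methods name as a stranded mRNA kit, and whether counting used strand is not given in the sources used here. The authors trimmed reads with Trimmomatic, quantified genes on GRCm38 with RSEM 1.2.22, and deposited expected counts per gene, which are not normalized for depth. These estimated counts were not whole for 24.93% to 27.95% of nonzero values per library and were rounded here. Analysis used R 4.3.3 with edgeR 4.0.16 and DESeq2 1.42.0, and Python 3.11.15 with matplotlib 3.10.9. Genes with 50 counts or more in 2 of the 6 libraries were tested with TMM scaling and the quasi-likelihood test of edgeR, Benjamini-Hochberg adjusted, while the study used edgeR's exact test. Calls needed an adjusted p below 0.05 and a fold change above 1.2. The analysis was tested on simulated data, in which many small changes were missed and the share of false calls for the crush effect exceeded the nominal level. CPM values cover the tested genes. For a gene with 0 counts on one side the fold is a lower bound against a floor of 3 counts per library. For some with 1 to 4 counts it is a ratio with an exact 95% Poisson interval of the lower count, with the higher side held fixed. Both cover counting error only. Genes were annotated with GENCODE M21.

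The genes, the 33 gene lists, and the tests were chosen with earlier results of these data known. Named genes were the 10 largest fold changes and the 10 largest CPM changes in each direction, the 4 called members with the smallest p of each list and the largest against its majority, 13 chosen markers, and the 5 smallest interaction p-values among called genes. Further list members are given as examples, and the list of reference genes was added after the data were seen. A gene can be on more than 1 list. Some genes chosen by these rules are not reported here.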

Additional observations from a re-analysis of the deposited data

Results flagged for a closer look

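The effect of crush differed between control and RaptorKO nerves in 318 of 12851 genes (interaction of genotype and injury, quasi-likelihood test of edgeR, Benjamini-Hochberg adjusted), and 15 of them are among the genes chosen by their size of change, as markers, or by the interaction. Values below are the log2 difference of the crush effect, controls minus RaptorKOs. The log2 rise of mitosis genes was larger in controls, by 3.61 for Cdk1, 4.98 for Kif14, 3.04 for Ccnb1, 3.07 for Pimreg, 3.38 for Cenpf, and 2.43 for Mki67. Levels on both sides entered these differences. Contralateral nerves held 0.777 CPM of Cenpf in controls and 4.12 CPM in RaptorKOs, and injured nerves held 156 and 76.1 CPM. For Ccnb1 the levels were 0.156 and 0.608 CPM in contralateral and 67.0 and 30.4 CPM in injured nerves. Igfbp5 (1.26), Ngfr (0.93), Eef1a1 (0.54), and Psap (0.46) also rose more in controls. Cnmd (-3.38), Bcas1 (-1.77), Gjb1 (-1.30), and Drp2 (-0.85) were more negative in controls, and Kcna1 (1.87) fell more in RaptorKOs. Kif14 had 1 count in the contralateral control libraries together, and Cdk1, Ccnb1, and Pimreg had 5 each. Cnmd had 4 in the injured ones, so the size of the differences of these genes is uncertain.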

How the results depend on the processing

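The exact test of edgeR, DESeq2, 3 other scalings, no count filter, a stricter filter, an adjusted p of 0.01, and all 13 libraries in 1 fit kept the number of higher genes between 3359 and 5126 and that of lower genes between 3176 and 4521. Requiring a 2-fold change left 1943 higher and 1973 lower genes. Without 1 library the counts were 3683 to 3967 higher and 3732 to 3906 lower. With a replicate block they were 3975 higher and 4051 lower. Deviations of same-numbered libraries correlated by 0.0884, 0.115, and 0.31. Control injured 2 and 3 correlated best with their own number, and control injured 1 with contralateral 2 (0.122). These values do not settle whether the numbers mark pairs, and the main test used none. Of 171 named genes, 169 kept their direction and call under all 15 alternatives other than thresholds. The exceptions, given above, were mt-Nd1 and Gas6, and at a 2-fold threshold 20 were no longer called. No list median past the 1.2-fold limit changed sign in these alternatives.

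The number of genes with an interaction was 598 with DESeq2, 84 at an adjusted p of 0.01, 446 with no count filter, 353 when the replicate block was added, 206, 169, and 226 without control injured 1, 2, and 3, and 167, 132, and 170 without control contralateral 1, 2, and 3. Of the 15 interactions named above, 7 kept their call under all 10 alternatives and none changed direction. Sizes under 2-fold, genes of few counts, and interactions are limited by 3 libraries per side and by depth.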
